A study of Homo sapiens with 60 samples.

Results

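The interleukin 6 family and the colony-stimulating factors were followed in SW1783, a human astrocytoma cell line. They were represented by 10 genes chosen by name from the 60675 genes of the count table. The choice was made with earlier results of these data known. Counts of these genes set beside the share over all genes are therefore descriptions and no independent support. The genes were 7 ligands (IL6, IL11, LIF, CLCF1, CSF1, CSF2 and CSF3), 2 receptor chains (IL6ST and OSMR) and 1 feedback inhibitor (SOCS3). RNA was sequenced from 60 libraries of cells kept for 24 h with a herbal extract or with dimethyl sulfoxide, the vehicle. The study asked what such extracts do to the transcriptome. Nothing in the sources says that the libraries of a group came from separate cultures, so the p-values measure the spread between these libraries, which may be technical.

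The 2 decoctions, Yijin-tang (3 libraries a dose) and Soshiho-tang (2 libraries a dose), each combine several herbs. Both were water extracts with a low dose of 20, a medium dose of 100 and a high dose of 500 µg/mL. The 6 single herbs were ethanol extracts. Longan Arillus, Zizyphi Semen and Liriopis seu Ophiopogonis Tuber had the same doses as the decoctions. For Schisandrae Fructus the low dose was 12.4, the medium 62 and the high 310 µg/mL, and these 4 herbs had 3 libraries a dose. Single libraries stand for Polygalae Radix (low 1.2, medium 6 and high 30 µg/mL) and for Aucklandiae Radix (low 6.4, medium 32 and high 160 µg/mL). Per the design text, an extract whose IC20 (an inhibitory concentration) lay under 500 µg/mL had that concentration as its high dose. The vehicle had 3 libraries. Its concentration is 0.1% in the sample labels and 2% in the design text, so the concentration used is not settled by the sources. For the libraries with an extract the labels give no vehicle concentration.

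The ligands of the interleukin 6 family signal through the shared receptor chain gp130, the product of IL6ST, which works together with a partner chain such as OSMR or the leukaemia inhibitory factor receptor. The receptors activate JAK kinases and STAT3, and SOCS3, itself a STAT3 target, blocks gp130 in return. The colony-stimulating factors are growth factors of macrophages (CSF1), of granulocytes and macrophages (CSF2) and of granulocytes (CSF3). Reactive astrocytes are a known source of IL6, LIF and CSF1, and cytokine genes of this kind are textbook targets of NF-kappaB and AP-1.

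Promoter sequences are shown for IL6, CSF2 and IL11, the 3 ligands with a promoter window at hand. IL6 and CSF2 rose at the high dose of both decoctions and IL11 at that of Yijin-tang. No window was at hand for LIF and CSF3, which also rose in both decoctions, or for CSF1 and CLCF1. The sequences were taken from RefSeq for the build GRCh38.p14 and run 5′ to 3′ on the gene's strand. Each covers 250 bases before and 50 bases after the annotated start. IL6 is shown for chr7:22726950-22727249 (plus strand), CSF2 for chr5:132073539-132073838 (plus strand) and IL11 for chr19:55370414-55370713 (minus strand). Capitals mark a match to a searched motif.
IL6: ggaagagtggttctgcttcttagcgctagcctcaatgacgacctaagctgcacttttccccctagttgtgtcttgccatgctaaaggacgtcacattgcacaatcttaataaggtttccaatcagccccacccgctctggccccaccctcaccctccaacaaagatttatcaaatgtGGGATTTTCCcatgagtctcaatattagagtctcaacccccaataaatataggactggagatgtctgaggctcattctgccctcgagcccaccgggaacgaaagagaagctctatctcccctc
CSF2: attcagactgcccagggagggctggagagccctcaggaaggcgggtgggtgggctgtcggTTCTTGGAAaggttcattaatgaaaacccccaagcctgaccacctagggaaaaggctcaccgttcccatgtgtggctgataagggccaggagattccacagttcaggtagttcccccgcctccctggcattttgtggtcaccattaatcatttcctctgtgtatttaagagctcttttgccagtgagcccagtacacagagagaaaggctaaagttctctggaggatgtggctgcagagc
IL11: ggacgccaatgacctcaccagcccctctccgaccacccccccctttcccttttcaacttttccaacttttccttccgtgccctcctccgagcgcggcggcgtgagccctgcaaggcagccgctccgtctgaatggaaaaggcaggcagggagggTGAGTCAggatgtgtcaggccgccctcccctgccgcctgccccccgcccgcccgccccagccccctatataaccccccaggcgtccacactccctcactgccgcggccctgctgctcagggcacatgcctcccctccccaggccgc
In the IL6 sequence the capitals are a match to the NF-kappaB consensus that begins 73 bases before the start. In CSF2 they are a match to TTCNNNGAA, a STAT site, at 190 bases before the start. In IL11 they are a match to TGANTCA, an AP-1 site, at 96 bases before the start. Of all 35116 RefSeq promoter windows of this length, searched on both strands, 11.3% held the NF-kappaB consensus, 7.66% TTCNNNGAA and 7.71% TGANTCA. The cyclic AMP element TGACGTCA (in 1.85% of windows) and TATAAA (in 11.5%) were not found in these 3 windows. RefSeq windows were at hand for 6 of the 10 genes. IL6ST held a match to the NF-kappaB consensus 53 bases before its start, the OSMR window a TGANTCA match, and the 2 SOCS3 windows none of the 5 motifs. The matches overlapped no other searched motif. A match is a string of letters and not a shown binding site.

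All 10 genes were among the 17851 that passed the filter on low counts, but CSF2 reached 10 reads in 6 of 60 libraries only, all of them high-dose libraries of Yijin-tang, Soshiho-tang or Aucklandiae Radix. Of these, only the Yijin-tang and Soshiho-tang libraries entered the filter, so CSF2 passed it through the groups in which it was high. Its calls in these groups are therefore no independent support. CSF3 reached 10 reads in 43 libraries. Levels are given as CPM (counts scaled to library size) and, where genes are compared with each other, as CPM per kb of merged exon. By the median over the 60 libraries CSF1 (42.7 CPM per kb) and IL6ST (42.0) lay highest, followed by OSMR (30.5), IL11 (26.1), SOCS3 (15.2), CLCF1 (12.7) and LIF (6.4). IL6 lay at 2.01 CPM per kb, CSF3 at 0.208 and CSF2 at 0.0603. Transcripts of IL6ST, OSMR and CSF1 were therefore abundant in every condition. In both decoctions CSF2, CSF3 and IL6 had the largest changes between the high and the low dose and the lowest levels among the ligands. CSF2 counts here with the limit just given. In Soshiho-tang LIF (log2 fold change 2.27) changed nearly as much as IL6 (2.53).

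Total counts ran between 18.73 and 35.52 M (median 25.78 M). Library names place the libraries in 5 sets, of which the vehicle forms one of its own. For a low dose the effects of the extract, the library set and any difference in solvent therefore cannot be told apart. The high and low doses of an extract share a set, and their comparison leads each account below. Of 8 astroglial markers, 4 had a median of 1 CPM or more (VIM, SOX9, SLC1A3 and NES), while GFAP, S100B, SOX2 and AQP4 did not. All 6 mesenchymal markers reached 1 CPM, COL1A1 with a median of 3430 CPM. Of the immune markers CD68 (208 CPM) and PTPRC (8.4 CPM) did so, with CD14, LST1, TYROBP and CD3E under 1 CPM, and none of 4 endothelial markers did. Among neuronal markers SNAP25 and SYT1 and among epithelial markers KRT8 and KRT18 reached 1 CPM. The high-dose library of Polygalae Radix stood apart: its astroglial markers summed to 733 CPM and its mesenchymal markers to 975 CPM, against medians of 5020 and 5630 CPM over all libraries, and mitochondrial transcripts took 20.3% of its counts. Replicate 3 of Longan Arillus at the medium dose stood apart for the receptors, as given with them, which is not shown to be particular to these genes. In a cell line measured in bulk, fewer cells that make a transcript and less transcript per cell cannot be told apart.

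Against its low dose, the high dose of Yijin-tang had 6 of the 7 ligands up, while CLCF1, both receptor chains and SOCS3 did not pass. The 6 include CSF2, which passed the low-count filter only through the high-dose groups of both decoctions. The largest fold changes were those of the colony-stimulating factors CSF3 and CSF2 and of IL6. A gene passed when its adjusted p (edgeR's quasi-likelihood test with Benjamini-Hochberg adjustment over all genes tested) was under 0.05. The background of this comparison was 7.00% of all genes tested. The median log2 fold change was 0.67 over the 10 genes, 1.18 over the 7 ligands and 0.00 over all genes tested.

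IL6, the family's founding cytokine and an inducer of the acute phase response, had 25.0, 22.5 and 19.3 CPM in the high-dose libraries of Yijin-tang, against 4.85, 3.98 and 4.33 CPM in the low-dose libraries. Every high-dose library lay above every low-dose library. The log2 fold change was 2.35 ± 0.12 (SE, adjusted p = 9.42e-19, edgeR). CSF3, which drives granulocyte production, had 7.27, 5.52 and 4.74 CPM at the high dose, against 0.428, 0.462 and 0.527 CPM at the low dose. These stood for 175, 142 and 148 reads at the high dose and 9, 13 and 14 reads at the low dose, and the log2 fold change was 3.60 ± 0.24 (adjusted p = 5.04e-15, edgeR). The groups did not come near each other, while the high-dose libraries spread more for CSF3, relative to their mean, than for any more abundant ligand.

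CSF2, the granulocyte-macrophage factor, was counted in 12, 13 and 19 reads in the high-dose libraries of Yijin-tang, against 0, 0 and 3 reads in the low-dose libraries. The ratio of scaled reads was 13.7, with an exact 95% counting interval between 4.4 and 69.0, and the gene passed the test (adjusted p = 0.00123, edgeR). Such intervals cover counting error only. The fitted log2 fold change of 3.62 ranged between 3.01 and 6.80 over the 10 alternatives that gave an adjusted p, in each of which the gene passed. Its highest value came without low-dose replicate 3, which held the 3 reads, and is then set against 0 reads, so it is no bound.

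IL11, a gp130 cytokine that acts on stromal cells and megakaryocytes, had 180, 181 and 166 CPM at the high dose of Yijin-tang, against 73.6, 80.7 and 78.1 CPM at the low dose (log2 fold change 1.18 ± 0.06, adjusted p = 1.92e-18, edgeR). IL11 was also the one member to pass between the medium and the low dose: 113, 108 and 111 CPM at the medium dose, against the same low-dose values, with a log2 fold change of 0.51 ± 0.06 (adjusted p = 6.25e-06, edgeR, background 0.0224%). Its 3 dose groups thus formed 3 levels with no overlap, which no other of the 10 genes did past the threshold. IL6 at the medium dose, at 6.60, 6.02 and 5.39 CPM, lay above each low-dose library too, but did not pass against the low dose.

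LIF, named for its action on leukaemia cells and active on neural and glial precursors, had 46.5, 47.2 and 42.2 CPM at the high dose of Yijin-tang, against 25.4, 24.2 and 22.7 CPM at the low dose (log2 fold change 0.91 ± 0.07, adjusted p = 4.63e-13, edgeR). CSF1, the macrophage and microglia growth factor, had 311, 313 and 298 CPM, against 231, 232 and 222 CPM at the low dose (0.42 ± 0.05, adjusted p = 2.64e-09, edgeR). For both genes the high-dose libraries lay apart from the low-dose ones. CLCF1, a ligand of the ciliary neurotrophic factor receptor, averaged 23.9 ± 1.54 CPM at the high dose and 23.4 CPM at the low dose, and the 95% interval of its log2 fold change ran between -0.10 and 0.16. Summed immune markers lay between 228 and 253 CPM at the high dose, against 213 to 224 CPM at the low dose, with CD14, LST1, TYROBP and CD3E under 1 CPM in the median library. Lower at the high dose, with no overlap, were the summed astroglial (4320 to 4480 CPM, against 4720 to 4750 CPM at the low dose), mesenchymal (5060 to 5250 CPM, against 5620 to 5960 CPM) and epithelial markers (96.3 to 109 CPM, against 128 to 136 CPM). The part of these shifts in the result was not tested.

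**Figure D1:**
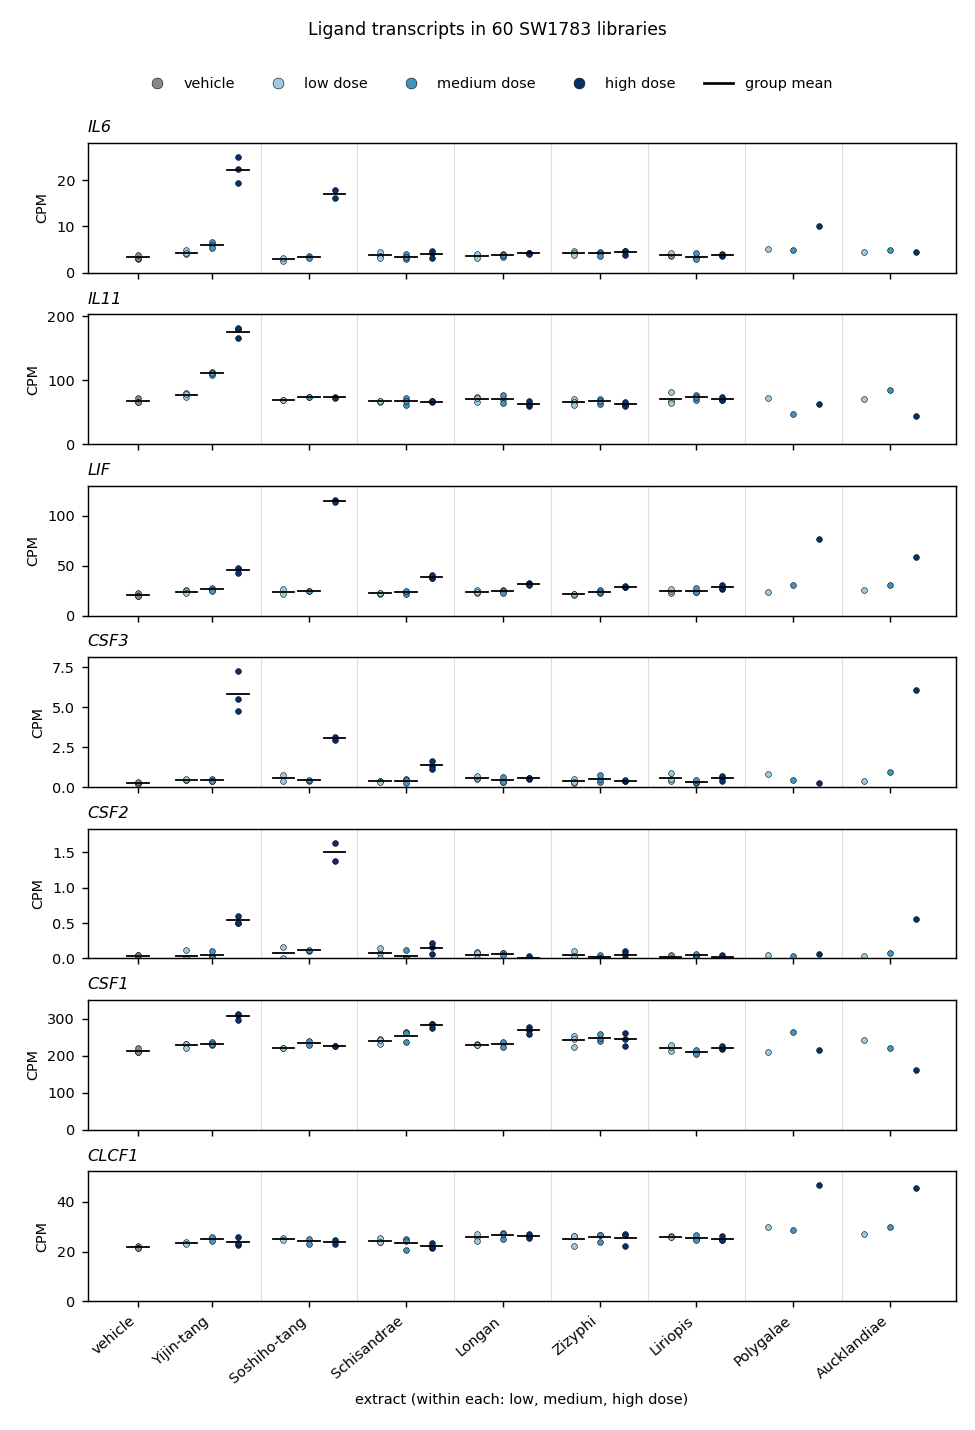
CPM of the 7 ligand transcripts in each of the 60 libraries (points, coloured by dose) with the group mean (bar), by extract, with the vehicle at the left and doses from low to high. IL6 reached 19.3 to 25.0 CPM at the high dose of Yijin-tang and 16.2 to 17.8 CPM at that of Soshiho-tang, IL11 reached 166 to 181 CPM at the high dose of Yijin-tang and LIF 114 and 116 CPM at that of Soshiho-tang; each panel has its own scale.

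At the high dose of Soshiho-tang, IL6, LIF, CSF2 and CSF3 rose against the low dose, SOCS3 fell, and the other 5 genes did not pass. The background was 18.6%. The median log2 fold change was 0.13 over the 10 genes and 2.27 over the ligands, while that of all genes tested was 0.00. Both medians of these genes include CSF2, with the limit of the filter given above, and so are no independent support. Among the ligands IL11, CSF1 and CLCF1 did not pass.

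LIF had 116 and 114 CPM in the high-dose libraries of Soshiho-tang, against 26.5 and 21.5 CPM in the low-dose libraries, the highest levels of LIF in the 60 libraries. The log2 fold change was 2.27 ± 0.09 (SE, adjusted p = 4.20e-24, edgeR). IL6 had 17.8 and 16.2 CPM, against 2.53 and 3.26 CPM at the low dose (2.53 ± 0.16, adjusted p = 1.96e-16, edgeR). CSF3 had 2.98 and 3.12 CPM, against 0.738 and 0.358 CPM at the low dose (2.54 ± 0.31, adjusted p = 1.61e-08, edgeR). In all 3 genes both high-dose libraries lay above both low-dose libraries.

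CSF2 was counted in 49 and 42 reads in the high-dose libraries of Soshiho-tang, against 3 and 0 reads in the low-dose libraries, a ratio of scaled reads of 23.6 (exact 95% counting interval 7.81 to 116, adjusted p = 2.18e-05, edgeR). The fitted log2 fold change of 4.43 ranged between 3.21 (without low-dose replicate 3) and 8.28 (without low-dose replicate 2, which held the 3 reads, and again no bound), and the gene passed in each of the 9 alternatives. The 1.64 and 1.38 CPM of these libraries were the highest CSF2 levels of the study. SOCS3, the inhibitor of gp130 signalling, had 29.9 and 28.7 CPM at the high dose, against 42.0 and 43.2 CPM at the low dose (log2 fold change -0.54 ± 0.08, adjusted p = 9.00e-07, edgeR). SOCS3 thus fell at the dose at which 4 of the 7 ligands rose, CSF2 among them with the limit of the filter given above. IL11 had 73.7 and 72.6 CPM at the high dose and 69.6 and 68.7 CPM at the low dose, with a 95% interval of the log2 fold change between -0.07 and 0.23. CSF1 averaged 227 CPM at the high dose and 221 CPM at the low dose (interval -0.07 to 0.15). Summed mesenchymal markers lay at 2450 to 2570 CPM at the high dose, against 5450 to 5560 CPM at the low dose, and epithelial markers at 76.8 to 84.2 CPM, against 142 to 144 CPM. Neuronal markers lay at 40.8 to 41.5 CPM, against 49.7 to 51.0 CPM at the low dose, immune markers at 222 to 239 CPM, against 202 to 209 CPM, and astroglial markers at 5400 to 5580 CPM, against 5150 to 5160 CPM. The part of these shifts in the result was not tested. Between the medium and the low dose none of the 10 genes passed in Soshiho-tang (background 0.0112%).

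Both decoctions were given at the same doses and lie in one library set, so the difference between their high-minus-low changes was tested for each gene. Of the 10 genes 4 passed, LIF with a larger rise in Soshiho-tang and IL11, CSF1 and SOCS3 with a change that was lower in Soshiho-tang. The background was 9.40%. The difference (Soshiho-tang minus Yijin-tang, log2) was 1.36 ± 0.11 for LIF (adjusted p = 1.09e-12, edgeR), -1.10 ± 0.10 for IL11 (adjusted p = 3.02e-11), -0.38 ± 0.07 for CSF1 (adjusted p = 1.40e-04) and -0.44 ± 0.10 for SOCS3 (adjusted p = 0.00234). IL6 did not pass (0.18 ± 0.21, 95% interval -0.23 to 0.59), nor did CSF3 (-1.07 ± 0.43, interval -1.91 to -0.22, adjusted p = 0.122) or CSF2 (interval -2.32 to 3.94). The 4 ligands that rose in both decoctions included 1, LIF, whose rise differed in size past the threshold.

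**Figure D2:**
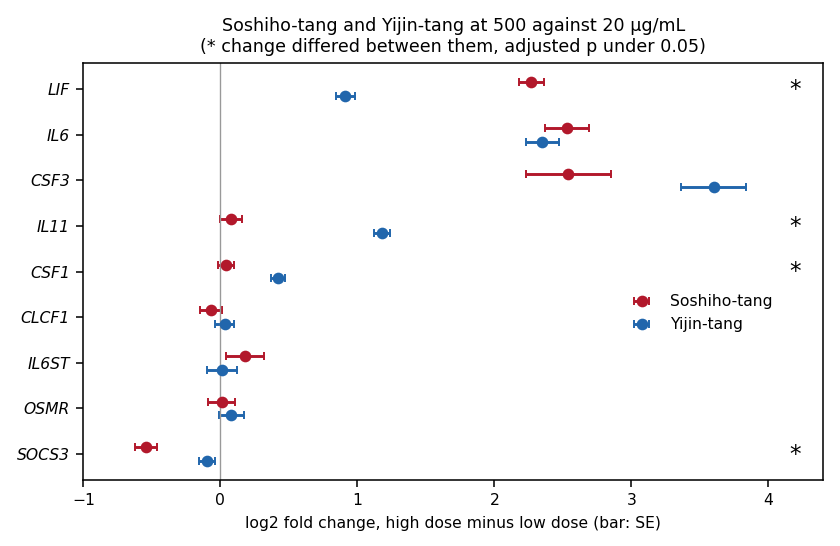
Log2 fold change of the high against the low dose for 9 of the 10 genes in Soshiho-tang (red) and Yijin-tang (blue), with bars of 1 SE; an asterisk marks the genes whose change differed between the decoctions. LIF changed by 2.27 in Soshiho-tang and by 0.91 in Yijin-tang, and IL11 by 0.08 in Soshiho-tang and by 1.18 in Yijin-tang; CSF2, with 3 reads over the low-dose libraries of each decoction, is left out.

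At the high dose of Schisandrae Fructus, 310 µg/mL, CSF3, LIF and CSF1 rose and IL6ST fell against the low dose, while IL6 did not pass. The background was 45.9%, so 4 calls among 10 genes are near the share over all genes. The median log2 fold change of the 10 genes was 0.06. CSF3 had 1.32, 1.15 and 1.63 CPM at the high dose, against 0.389, 0.377 and 0.331 CPM at the low dose (log2 fold change 1.87 ± 0.29, adjusted p = 5.78e-07, edgeR). LIF had 37.8, 37.3 and 40.8 CPM, against 21.8, 22.9 and 22.9 CPM (0.77 ± 0.07, adjusted p = 4.49e-12, edgeR). CSF1 averaged 282 ± 5.85 CPM at the high dose, against 240 CPM at the low dose (0.23 ± 0.05, adjusted p = 5.22e-05, edgeR). For these 3 ligands the 2 doses did not overlap.

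IL6ST, the gp130 chain, had 292, 251 and 237 CPM in the high-dose libraries of Schisandrae Fructus, against 423, 412 and 423 CPM in the low-dose libraries (log2 fold change -0.69 ± 0.11, adjusted p = 1.96e-06, edgeR). These were the lowest IL6ST levels of any replicated group, although replicate 3 of Longan Arillus at the medium dose, at 237 CPM, was as low. IL6 had 4.32, 3.24 and 4.63 CPM at the high dose of Schisandrae Fructus and 4.39, 3.65 and 3.26 CPM at its low dose, which overlap (interval of the log2 fold change -0.19 to 0.37). CSF2 was counted in 5, 7 and 2 reads at the high dose and in 2, 0 and 3 reads at the low dose, and did not pass. Summed neuronal markers lay at 22.8 to 27.5 CPM at the high dose, against 51.2 to 54.7 CPM at the low dose, and immune markers at 254 to 265 CPM, against 205 to 217 CPM. Epithelial markers lay at 77.0 to 95.4 CPM, against 119 to 133 CPM at the low dose, and astroglial markers at 4890 to 5220 CPM, against 4640 to 4830 CPM. Their part in the result was not tested. None of the 10 genes passed between the medium and the low dose (background 0.0392%).

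In Longan Arillus LIF and CSF1 passed, 2 of the 10 genes. LIF had 32.6, 31.7 and 30.3 CPM at the high dose, against 25.4, 23.1 and 23.2 CPM at the low dose (log2 fold change 0.40 ± 0.07, adjusted p = 0.00127, edgeR). CSF1 had 277, 269 and 259 CPM, against 231, 228 and 229 CPM (0.23 ± 0.05, adjusted p = 0.00429, edgeR). The groups did not overlap in either gene, and the background was 0.936%. Both calls were lost when the model held only these 6 libraries (adjusted p = 0.0686 for LIF and 0.165 for CSF1), and that of CSF1 also without high-dose replicate 1 (adjusted p = 0.0512).

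In Zizyphi Semen LIF had 29.0, 28.5 and 29.4 CPM at the high dose, against 21.9, 20.2 and 21.5 CPM at the low dose (log2 fold change 0.44 ± 0.07, adjusted p = 6.30e-05, edgeR), and no other of the 10 genes passed (background 5.78%). In Liriopis seu Ophiopogonis Tuber none passed in edgeR (background 0.00%; 463 of all genes had an unadjusted p under 0.05, and DESeq2 called 1). LIF, at 26.9, 27.7 and 30.8 CPM at the high dose and 22.5, 24.9 and 26.6 CPM at the low dose, had a log2 fold change of 0.20 ± 0.07 there. Edges of the 2 groups lay close together, the highest low-dose library at 26.6 CPM and the lowest high-dose library at 26.9 CPM. At the medium dose none of the 10 genes passed against the low dose in Longan Arillus, Zizyphi Semen or Liriopis seu Ophiopogonis Tuber (background 0.00% in each). Over all genes edgeR gave an unadjusted p under 0.05 to 1022, 679 and 1300 genes in these 3 herbs, in this order, and DESeq2 called 0, 1 and 24. Longan Arillus and Zizyphi Semen share doses and a library set, and none of the 10 genes passed the edgeR test of a difference in high-minus-low change between them (background 3.97%). CSF1 lay just outside the threshold there (Longan Arillus minus Zizyphi Semen 0.21 ± 0.06, adjusted p = 0.0504, edgeR).

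Over the 6 replicated extracts LIF rose at the high against the low dose in 5, CSF1 and CSF3 in 3 each, IL6 and CSF2 in 2 each and IL11 in 1, while CLCF1 passed in none. The 2 extracts in which CSF2 rose are those that carried it past the low-count filter. Among receptors and feedback, IL6ST and SOCS3 each fell in 1 extract and OSMR passed in none. A call in one extract and not in another does not show that the extracts differ; that was tested only for the pairs named above.

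**Figure D3:**
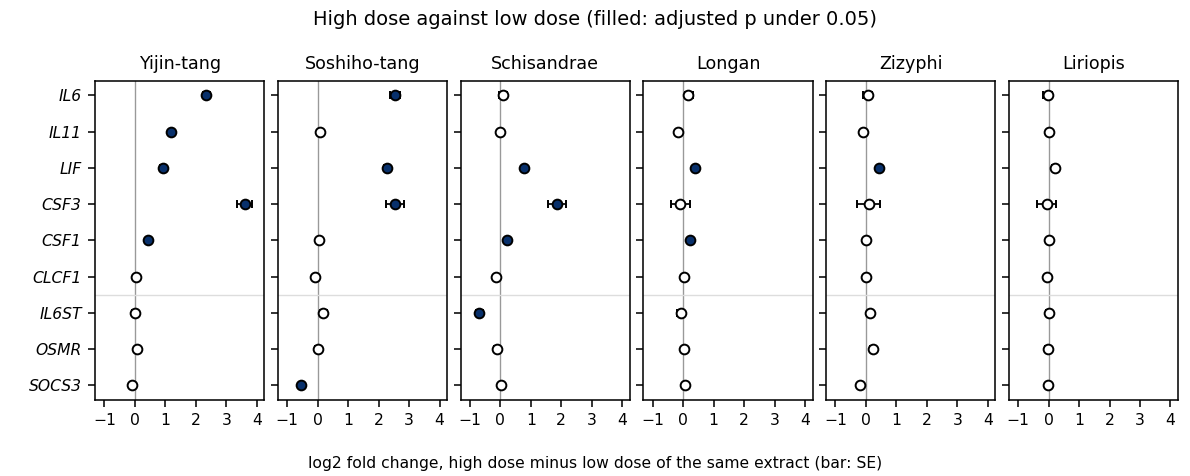
Log2 fold change of the high against the low dose of the same extract for 9 genes in the 6 replicated extracts, with bars of 1 SE and filled points where the adjusted p was under 0.05; a grey line separates the ligands from IL6ST, OSMR and SOCS3. LIF is filled in 5 of the 6 extracts, IL6 in the 2 decoctions and IL11 in 1 extract, Yijin-tang; CSF2 is left out because its low-dose groups hold 2 to 5 reads.

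The same genes were set against the vehicle, the study's control, with the limits that it forms its own library set and may differ in solvent. Of the 63 calls against the vehicle 28 held in each alternative run, among them those of LIF at the high dose of all 6 extracts and of IL6 at that of both decoctions. For Yijin-tang at the high dose 8 of 10 passed (background 19.8%): the 6 ligands named above and SOCS3 were higher and IL6ST was lower. IL6, with 19.3 to 25.0 CPM at the high dose, had 3.02, 3.28 and 3.91 CPM in the vehicle libraries. The calls of SOCS3 and IL6ST at the high dose were lost without vehicle replicate 3, among others. IL11 had 166 to 181 CPM at the high dose, against 71.8, 66.5 and 66.0 CPM in the vehicle (log2 fold change 1.36 ± 0.06). LIF had 42.2 to 47.2 CPM at the high dose, against 22.5, 20.1 and 19.3 CPM in the vehicle (1.13 ± 0.07). At the medium dose 6 passed (background 14.2%), with IL11 at 0.69 ± 0.06 and IL6 at 0.81 ± 0.15 the largest. At the low dose SOCS3 alone passed (background 2.62%).

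Soshiho-tang had 5 of 10 past the threshold at the high dose (background 30.3%), the same 5 genes as against its low dose, with LIF at 2.47 ± 0.08 and SOCS3 at -0.26 ± 0.07. CSF2 stood at 91 reads over the 2 high-dose libraries, against 2 reads over the 3 vehicle libraries, a ratio of scaled reads of 44.2 (exact 95% counting interval 11.9 to 371). At the medium and low doses 1 gene passed in each, SOCS3, which was higher than in the vehicle (backgrounds 4.20% and 1.91%). SOCS3 therefore lay above the vehicle at the medium and low doses of Soshiho-tang and below it at the high dose. The calls at the medium and low doses were lost without vehicle replicate 1 or 3 and without either library of the dose itself, and that at the high dose without vehicle replicate 2 or high-dose replicate 3.

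Schisandrae Fructus had 5 of 10 at the high dose (background 50.1%), LIF, CSF1, CSF3 and SOCS3 higher and IL6ST lower, the last at -0.96 ± 0.11. It had 2 at the medium dose (CSF1 and SOCS3, background 5.39%) and 1 at the low dose (SOCS3, background 1.08%). The SOCS3 call at the medium dose was lost without any 1 of its own or the vehicle's libraries, and that at the low dose without replicate 2 or 3 of that dose or vehicle replicate 1 or 3. Longan Arillus had 6 at the high dose (background 15.9%), among them CSF3 at 1.11 ± 0.38, a call that was lost without any 1 of its own or the vehicle's libraries. Longan Arillus had 5 at the medium dose (background 25.2%) and 2 at the low dose (CLCF1 and IL6ST, background 5.41%). Zizyphi Semen had 4 at each dose, with backgrounds of 18.5% at the low, 14.4% at the medium and 13.3% at the high dose. Liriopis seu Ophiopogonis Tuber had 3 at the low, 4 at the medium and 1 at the high dose (backgrounds 6.59%, 13.0% and 4.09%), the last being LIF (0.46 ± 0.08).

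In all 6 low-dose groups the averages of LIF, CLCF1, CSF1, CSF3 and SOCS3 lay above that of the vehicle, and those of the receptor chains below it. IL6ST averaged between 367 and 419 CPM in the 6 low-dose groups, against 451, 518 and 536 CPM in the 3 vehicle libraries. OSMR, the oncostatin M receptor chain that pairs with gp130, averaged 203 to 228 CPM in the low-dose groups, against 235 ± 11.3 CPM in the vehicle. SOCS3 averaged 38.9 to 45.9 CPM in the 6 low-dose groups, against 34.8 ± 1.88 CPM in the vehicle (SD, n = 3), and CLCF1 averaged 23.4 to 26.0 CPM, against 21.7 ± 0.596 CPM. These values point the same way in all 6 extracts, share the 3 vehicle libraries, and cannot be told apart from the library set or any difference in solvent.

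OSMR passed in 1 of the 30 dose comparisons, at the medium dose of Longan Arillus against the vehicle, and that call was lost without replicate 3 of the herb or without vehicle replicate 2 or 3. The medium-dose libraries had 220, 224 and 150 CPM of OSMR, and the vehicle 223, 239 and 244 CPM. The log2 fold change was -0.25 ± 0.09 (adjusted p = 0.0304, edgeR) with replicate 3 and -0.07 ± 0.07 (adjusted p = 0.679) without it. IL6ST had 397, 414 and 237 CPM in the same libraries, and its log2 fold change of -0.52 ± 0.11 (adjusted p = 0.0014) was -0.29 ± 0.09 without that replicate (adjusted p = 0.0746). SOCS3, at 0.31 ± 0.07 (adjusted p = 0.0013), was at 0.23 ± 0.07 without it (adjusted p = 0.0563). Replicate 3 was thus low in both receptor chains at once and, at 48.9 CPM, the highest of its group for SOCS3.

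**Figure D4:**
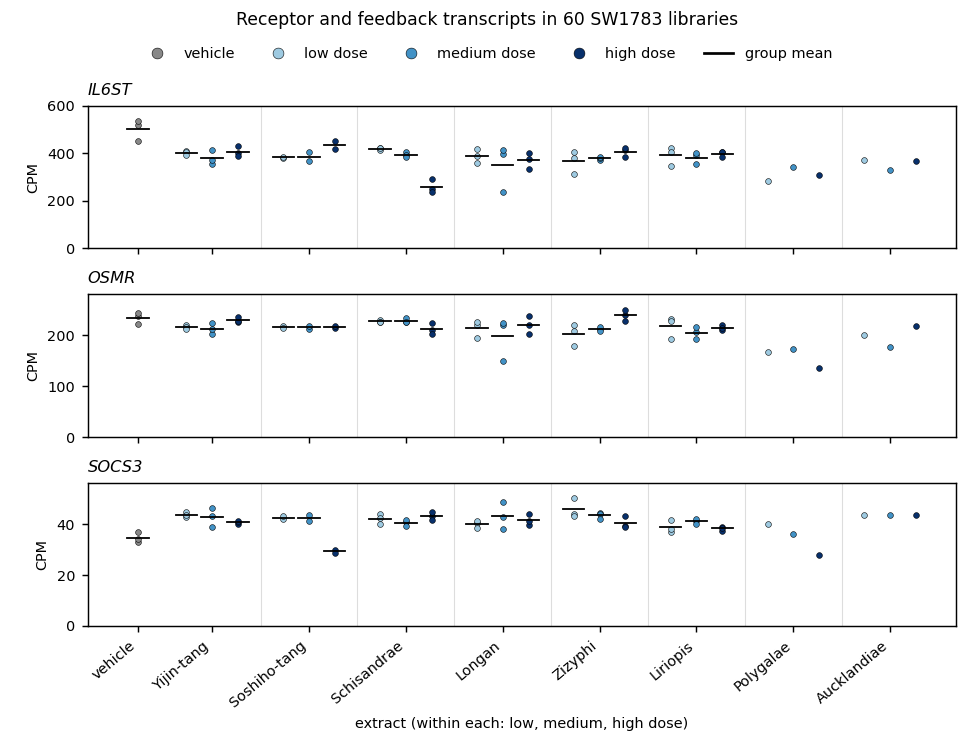
CPM of the receptor chains IL6ST and OSMR and of the feedback inhibitor SOCS3 in each of the 60 libraries (points, coloured by dose) with the group mean (bar), with the vehicle at the left and doses from low to high. IL6ST is low at the high dose of Schisandrae Fructus (237 to 292 CPM) and highest in the vehicle (451 to 536 CPM), SOCS3 is low at the high dose of Soshiho-tang (28.7 and 29.9 CPM), and 1 medium-dose library of Longan Arillus lies low in IL6ST and OSMR.

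Polygalae Radix and Aucklandiae Radix had 1 library a dose, so their values carry no replicate check and no test. Counted here are genes with a level 2-fold or more above or below the mean of the vehicle, beyond each vehicle library, and with 1 CPM or more on either side. At the high dose of Polygalae Radix 3 of 10 genes were counted, against 17.7% of all genes tested. LIF had 76.6 CPM (3.72 times the vehicle mean of 20.6 CPM), IL6 had 10.0 CPM (2.94 times) and CLCF1 had 46.6 CPM (2.15 times). This is the library with few astroglial and mesenchymal marker counts described above, and the part of that in these values was not tested. OSMR, at 136 CPM, and SOCS3, at 28.0 CPM, were at their lowest of all 60 libraries in it.

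At the high dose of Aucklandiae Radix 3 of 10 were counted, against 14.4% of all genes tested. CSF3 had 6.08 CPM (151 reads, 23.6 times the vehicle mean of 0.257 CPM), LIF had 58.9 CPM (2.86 times) and CLCF1 had 45.7 CPM (2.11 times). IL6, at 4.51 CPM, was 1.32 times the vehicle mean, so in this library CSF3 stood much further above the vehicle than IL6 did. Per kb of exon the levels were close, at 2.74 CPM for CSF3 and 2.18 CPM for IL6. CSF2, under the level of 1 CPM, was counted in 14 reads, against 1, 0 and 1 reads in the vehicle libraries. IL11, at 44.3 CPM, and CSF1, at 162 CPM, were at their lowest of all 60 libraries. Its summed mesenchymal markers lay at 1970 CPM, and their part in these values was not tested. The high-dose libraries of these 2 extracts were the highest for CLCF1 of all groups; every other library had 20.7 to 29.9 CPM of it. At the low and medium doses none of the 10 genes was counted in either extract, although CSF3 at the medium dose of Aucklandiae Radix (0.961 CPM, 23 reads) was 3.73 times the vehicle mean and at the low dose of Polygalae Radix (0.82 CPM, 17 reads) 3.19 times, both under 1 CPM. The backgrounds were 2.64% and 2.03% for Polygalae Radix and 1.41% and 3.99% for Aucklandiae Radix.

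**Figure D5:**
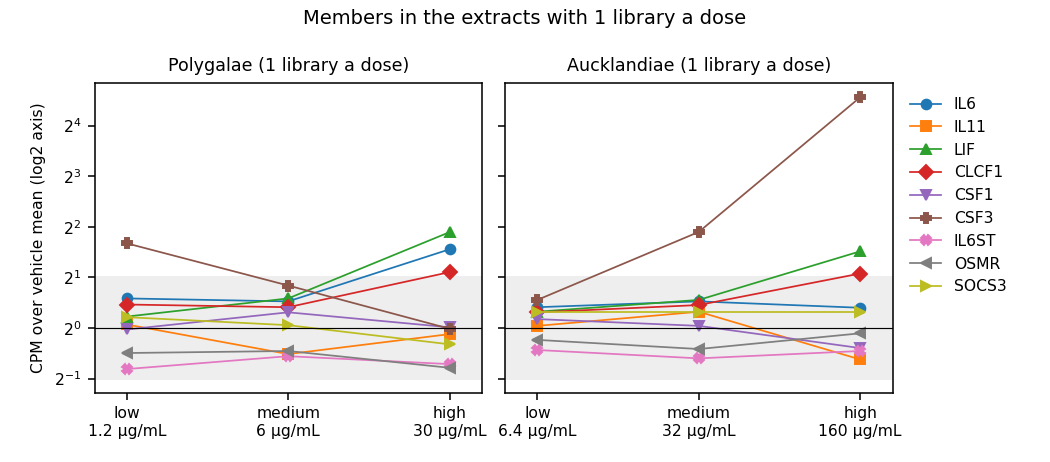
Level of 9 genes over the vehicle mean (log2 axis) in the 3 libraries of Polygalae Radix and the 3 of Aucklandiae Radix, by dose from low to high; the grey band covers values within 2-fold of the vehicle. At the high dose LIF and CLCF1 lie above the band in both extracts, IL6 in Polygalae Radix and CSF3 in Aucklandiae Radix; CSF3 at the low dose of Polygalae Radix, at 0.82 CPM, and at the medium dose of Aucklandiae Radix, at 0.961 CPM, lies above the band but under 1 CPM.

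Other genes of the pathway were followed in 4 lists. Their calls compare the high with the low dose of an extract unless the vehicle is named. Of 9 other ligands 5 were measured well enough to test. None passed at the high against the low dose in Yijin-tang, Soshiho-tang, Longan Arillus, Zizyphi Semen or Liriopis seu Ophiopogonis Tuber, with the backgrounds given above. In Schisandrae Fructus 1 of the 5 rose and 1 fell, near the background of 45.9%. The one that fell was IL34, the other ligand of the CSF1 receptor, which lay under 1 CPM at both doses (0.138 CPM at the high dose, against 0.581 CPM at the low dose, log2 fold change -2.02 ± 0.39).

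Of 10 other receptors 6 were tested. In Yijin-tang 1 of the 6 rose (background 7.00%), IL27RA (0.21 ± 0.07). In Soshiho-tang 2 fell and none rose (background 18.6%): CSF1R, the CSF1 receptor, at 1.77 CPM at the high dose, against 2.86 CPM at the low dose (-0.67 ± 0.20), and IL11RA, the receptor of IL11, at 10.9 CPM, against 13.4 CPM (-0.30 ± 0.10). In Schisandrae Fructus, with a background of 45.9%, 1 rose, IL27RA (0.42 ± 0.06), and 3 fell, CSF1R (-1.08 ± 0.15), IL11RA (-0.42 ± 0.08) and LIFR, the receptor of LIF (-0.43 ± 0.11). In Zizyphi Semen CSF1R (-0.49 ± 0.15) and IL11RA (-0.27 ± 0.08) fell (background 5.78%). CSF1R and IL11RA were thus lower at the high dose in the same 3 extracts, in 1 of which CSF1 itself rose.

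Of 12 genes of JAK-STAT signalling all were tested. In Yijin-tang 2 rose (background 7.00%), STAT5A (0.40 ± 0.07) and STAT5B (0.14 ± 0.04), transcription factors that CSF2 signalling uses. In Soshiho-tang 2 rose and 3 fell (background 18.6%). STAT3, the main STAT of gp130, fell there to 161 CPM at the high dose, against 191 CPM at the low dose (-0.24 ± 0.04), and STAT5B fell as well (-0.25 ± 0.05) while STAT5A rose (0.28 ± 0.09). In Schisandrae Fructus 6 rose and 1 fell, against a background of 45.9%, so that 7 of 12 is near the share over all genes. STAT5A stood at 17.5 CPM at the high dose, against 8.11 CPM at the low dose (1.11 ± 0.07), and CISH, a STAT5 target and inhibitor, at 3.16 CPM, against 1.42 CPM (1.14 ± 0.17), while SOCS1 fell (-0.82 ± 0.20). None of the 12 passed in Longan Arillus, Zizyphi Semen or Liriopis seu Ophiopogonis Tuber.

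Of 10 STAT3 targets 2 rose in Yijin-tang, where IL6, LIF and IL11 rose, and 8 did not pass (background 7.00%). They were JUNB (0.44 ± 0.08) and IL4R (0.42 ± 0.05). In Soshiho-tang, with a background of 18.6%, 4 rose and 2 fell: CEBPB (0.81 ± 0.12), PIM1 (0.56 ± 0.08), IL4R (0.45 ± 0.06) and BCL6 (0.39 ± 0.10) rose, and BCL3 (-0.59 ± 0.09) and STAT3, which is in both lists, fell. In Schisandrae Fructus PIM1 and IL4R rose and BCL3 and JUNB fell, and these 4 of 10 are near the background of 45.9%. In Longan Arillus IL4R alone rose (0.21 ± 0.05, background 0.936%), and in the remaining 2 extracts none passed. The list's median log2 fold change was 0.13 in Yijin-tang, 0.08 in Soshiho-tang and -0.05 in Schisandrae Fructus, against 0.00 over all genes tested in each. SOCS3, a further STAT3 target, passed upwards in none of the 6 extracts at the high against the low dose.

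Genes following IL6, LIF, IL11 or OSMR most closely were sought over the 25 group means among 13776 genes with 1 CPM or more. Pearson's r of log2 CPM is given as a description, since the groups share library sets and 6 of them hold 1 library. Closest to IL6 were ZC3H12A (r = 0.904), NFKBIZ (0.903), NFKBIA (0.896), CXCL2 (0.89) and TNFAIP3 (0.864). Closest to LIF were MFSD2A (0.937), IRAK2 (0.927), ATF3 (0.923), BHLHE40 (0.92) and HLX (0.915). For IL11 the likeness was weaker, with TNFAIP2 (0.77), NUAK2 (0.746), SIRLNT (0.74), APOL3 (0.735) and CSGALNACT1 (0.698). The 3 ligands shared none of these genes. For OSMR they were MAN2A1 (0.959), PIGN (0.932), ABCC10 (0.926), SMARCC1 (0.921) and SIDT2 (0.918). OSMR was lowest in the single high-dose library of Polygalae Radix (136 CPM), and the part of that library in these values was not tested.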

How the data were processed

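Per the labels, RNA of SW1783 cells was made into strand-specific libraries and read in pairs. Per the submitters' processing notes, reads passed FastQC 0.11.9, Trim Galore 0.6.5, STAR 2.7.3a and RSEM 1.3.3 with hg38 (GRCh38); the annotation release and strand setting are not stated in the sources. The deposited table holds the authors' RSEM expected counts for 60675 Ensembl genes; RSEM divides a read among the genes it matches, and 10.86% of the values were not whole. Counts were rounded. Symbols (56558 genes) came from the reference tables, positions (57055) and merged exon lengths from GENCODE release 29.

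Groups follow the labels: 16 of 3 libraries, 3 of 2 and 6 of 1. All 54 libraries with a replicate (19 groups) entered 1 model in edgeR 4.0.16 (R 4.3.3) after filterByExpr (minimum count 10, 17851 genes) and scaling by the trimmed mean of M values (35 residual and 6.31 prior degrees of freedom). The quasi-likelihood F test was used with Benjamini-Hochberg adjustment over all genes tested. The SE is the absolute log2 fold change over the square root of F. CPM are counts scaled to the effective library size. Ratios of reads have exact binomial 95% intervals. There were 32 comparisons. Pairs of libraries of a group differed beyond sampling noise in all 51 pairs, so none was taken for a copy. Tests were checked on simulated data. Alternatives were DESeq2's size factors, no filter, DESeq2 1.42.0, only the libraries compared, a replicate block and leaving out each library.

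The 10 genes, the lists and the tests were chosen with earlier results of these data known. Named beside the 10 genes are up to 3 of each pathway list by the number of extracts in which they passed, and the 5 closest in pattern to IL6, IL11, LIF and OSMR; JUNB, STAT3, CEBPB, BCL6, CISH, SOCS1 and LIFR were named after their values were seen. No list was given a set test. One gene of the lists is not reported here. Without a known strand setting, reads of CLCF1 and RAD9A, OSMR and RICTOR, IL6 and STEAP1B, and LIF and its antisense RNAs, which overlap on opposite strands, may not be fully told apart, and CLCF1 overlaps AP003419.1 on its own strand.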

Additional observations from a re-analysis of the deposited data

Results flagged for a closer look

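The change between the high and the low dose differed between the 2 decoctions, tested as a difference of differences in edgeR's quasi-likelihood test, in 4 of the 10 genes. For LIF the difference (Soshiho-tang minus Yijin-tang) was 1.36 on the log2 scale: LIF changed by 2.27 in Soshiho-tang and by 0.91 in Yijin-tang. For IL11 it was -1.10, with changes of 0.08 in Soshiho-tang and 1.18 in Yijin-tang. For CSF1 it was -0.38, with 0.04 in Soshiho-tang and 0.42 in Yijin-tang, and for SOCS3 -0.44, with -0.54 in Soshiho-tang and -0.10 in Yijin-tang. The 4 genes passed in each of the 15 alternatives run, with ranges of 1.21 to 1.51 for LIF, -1.14 to -1.06 for IL11, -0.40 to -0.36 for CSF1 and -0.47 to -0.41 for SOCS3. Both decoctions lie in one library set, and Soshiho-tang rests on 2 libraries a dose.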

How the results depend on the processing

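Of the 18 calls at the high against the low dose, 16 held in every alternative in which the gene had an adjusted p; the exceptions were LIF and CSF1 of Longan Arillus. Against the vehicle 28 of 63 calls held in every alternative, and no value changed sign past the threshold. Numbers here count genes past the threshold, of 10. Without the low-count filter they were 2 for the low doses of Yijin-tang, Soshiho-tang and Schisandrae Fructus (1 each in the report), 3 for the medium dose of Soshiho-tang (1) and 2 for the high dose of Liriopis seu Ophiopogonis Tuber (1), all against vehicle, and 2 for Zizyphi Semen high against low (1). In DESeq2 they were 2 for the medium dose of Soshiho-tang and the low dose of Schisandrae Fructus, 3 for the high dose of Liriopis seu Ophiopogonis Tuber, and 1 for the difference between Longan Arillus and Zizyphi Semen (0), which was CSF1. In fits of only the libraries compared they were 3 for the low doses of Yijin-tang, Soshiho-tang and Schisandrae Fructus, the medium dose of Soshiho-tang and the high dose of Liriopis seu Ophiopogonis Tuber, 2 for the low dose of Zizyphi Semen (4), and 0 for Longan Arillus high against low (2) and medium against vehicle (5) and for the low dose of Liriopis seu Ophiopogonis Tuber (3). The cause was not tested.

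With 1 library left out, counts against the vehicle ran from 3 to 6 for Yijin-tang medium, 0 to 2 for Soshiho-tang medium, 0 to 1 for the low doses of Soshiho-tang and Schisandrae Fructus, 1 to 2 for Schisandrae Fructus medium and 3 to 5, 2 to 5 and 0 to 3 for the high, medium and low doses of Longan Arillus. They ran from 1 to 4, 2 to 5 and 2 to 4 for the high, medium and low doses of Zizyphi Semen and from 1 to 2, 0 to 4 and 0 to 4 for those of Liriopis seu Ophiopogonis Tuber. Longan Arillus high against low gave 1 to 2, and the difference between Longan Arillus and Zizyphi Semen 0 to 1. With 1 library left in a group of Soshiho-tang, it is assumed to vary like the other groups.

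Groups of 2 or 3 libraries cannot decide whether replicate numbers pair the libraries. Same-numbered libraries mostly correlated near 0 in their deviations from the group means. All 3 pairs lay over 0.1 only for the medium and low doses of Liriopis seu Ophiopogonis Tuber (0.101 to 0.174). The highest value of a pair was 0.246, for the medium and low doses of Longan Arillus. With the replicate block the count was 2 for the low dose of Schisandrae Fructus against vehicle (1) and 1 for the difference between Longan Arillus and Zizyphi Semen (0), CSF1 again. All other counts stayed within 1.5 times. Depth limits CSF2 and, at low doses, CSF3.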
